A study of Mus musculus with 9 samples.

Results

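The 35 genes described here encode nuclear receptors and 4 of their coregulators. They were taken by gene symbol from the 55401 genes of a table of RNA levels in mouse liver, and all 35 symbols had a row. The study asked how loss of Ncf1, which encodes p47phox, a subunit of the NADPH oxidase of phagocytes, from myeloid cells alters the liver of mice given ethanol. Poly(A) RNA from 4 livers of Ncf1Lyz-/- mice (genotype Ncf1-fl/fl-Lyz-Cre+, called NKO) and from 5 livers of WT mice (genotype Ncf1-fl/fl, littermates) was sequenced. All mice were female, 10 to 12 weeks old and labelled as strain C57BL/6, with the floxed line on C57BL/6J by the methods. All had 5 days on a liquid control diet, 10 days on a diet with 5% ethanol by volume and then 1 gavage of 5 g ethanol per kg body weight, and livers were taken 9 hours after it. Both groups carry LoxP sites in introns of Ncf1, and the WT mice differ from the NKO mice in having no Cre. Lyz-Cre acts in myeloid cells, chiefly macrophages and neutrophils, which are a minority of the cells of a liver.

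Nuclear receptors are transcription factors, most of which are switched by a small lipid-soluble ligand such as a steroid, a retinoid, a thyroid hormone, an oxysterol or a bile acid. Many bind DNA as a pair with a retinoid X receptor, and they act on genes by exchanging corepressors, such as NCOR1, for coactivators, such as the NCOA proteins. In liver they set the identity of the hepatocyte and control bile acid, lipid, glucose and drug metabolism. Their activity is set largely by ligand and by modification of the protein, which an RNA level does not show.

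None of the nuclear receptor and coregulator genes differed between NKO and WT livers beyond the spread between mice. The genes of the most abundant receptors, Hnf4a, Nr1i3, Rxra, Nr1i2 and Nr1h3, had log2 fold changes (NKO minus WT) between −0.11 and 0.43. The smallest p by limma was that of Nr1h3, which encodes the oxysterol receptor LXRα, and the smallest by exact permutation that of Thra, a thyroid hormone receptor gene. Nr1h3 averaged 32.9 ± 3.72 FPKM in 4 NKO livers and 26.2 ± 6.10 FPKM in 5 WT livers (mean ± SD, log2 fold change 0.35), but the fold change was 0.01 in the 6 libraries of higher depth. FPKM is scaled both to the length of a transcript and to the size of its library, so levels of different genes can be compared. Of 35 members, 29 reached a mean of 0.5 FPKM and were tested, and 0 had an adjusted p under 0.05 by limma, where 0.0081% of the 12350 genes tested did. At an unadjusted p under 0.05 the count was also 0, against 5.9% of all genes tested. No member had NKO and WT values that did not overlap, against 2.21% of all genes tested (0.713% with NKO higher and 1.5% with NKO lower). Vdr, Hnf4g, Nr2c2, Nr2f1, Nr4a2 and Nr4a3 lay below the minimum level and have no fitted fold change.

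Libraries are called here as in the table, NKO2 to NKO5 for NKO livers and WT1, WT2, WT3, WT4 and WT6 for WT livers. Depth, recovered from the steps of low values, was 18.6 to 20.1 M fragments (M for mega) in NKO libraries and 15.2 to 18.6 M in WT libraries, of which WT3, WT4 and WT6 had 15.2 to 15.9 M. Ncf1 itself had 0.333 to 0.885 FPKM in NKO livers and 0.366 to 1.83 FPKM in WT livers, so the groups overlapped (log2 fold change −0.74, adjusted p = 0.890 by limma). The summed level of 6 hepatocyte markers was 46237 to 60522 FPKM in NKO livers and 42252 to 55265 FPKM in WT livers. That of 8 Kupffer cell markers was 86.4 to 190 FPKM in NKO livers and 69.4 to 234 FPKM in WT livers. In whole liver, fewer cells of a type and less RNA per cell cannot be told apart. The table lists an absent gene at 0.0001 FPKM.

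The levels of the 35 genes spanned from Hnf4a, at 123 ± 12.4 FPKM in NKO livers and 118 ± 17.3 FPKM in WT livers, down to Vdr, which was above the absent value in 1 NKO and 2 WT livers. Of the 29 tested members, 15 lay above the median level of the genes tested. A gap separated Hnf4a, Nr1i3, Rxra, Nr1i2 and Nr1h3 from the remaining genes, none of which exceeded 11.6 FPKM in any liver. The plot of levels by liver shows this gap and the overlap of the groups.

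**Figure D1:**
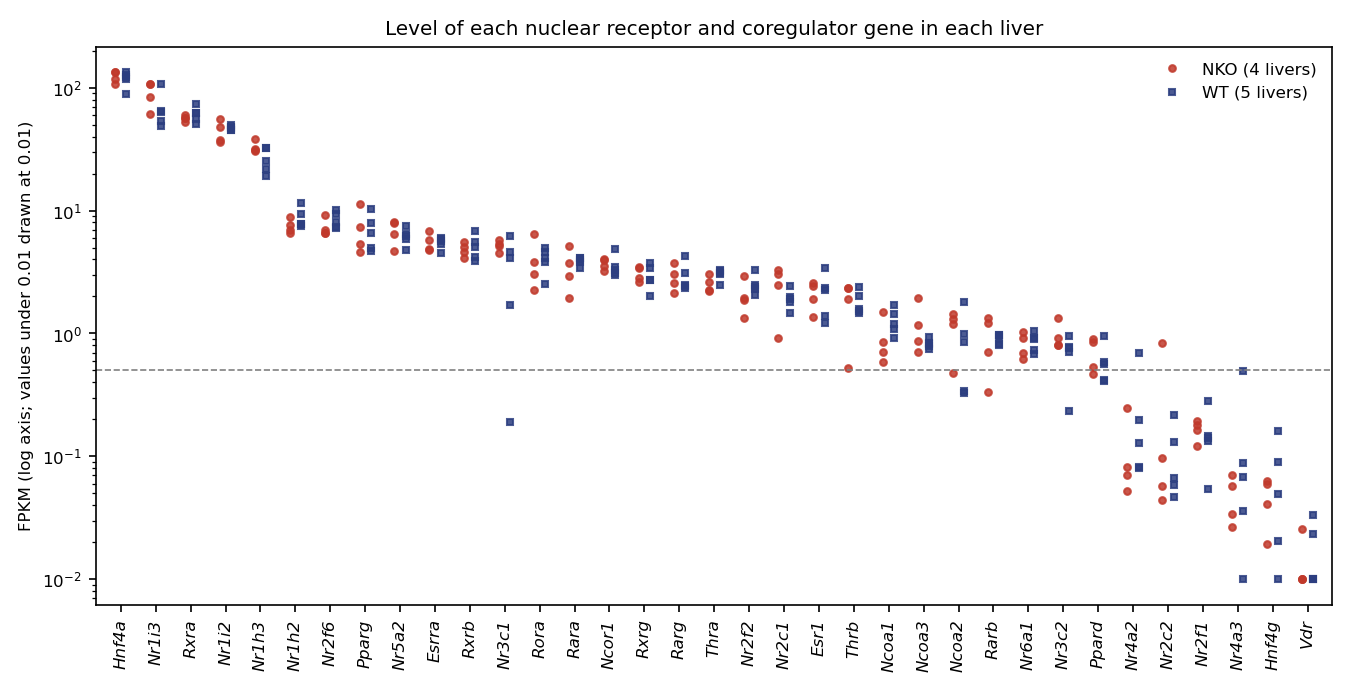
FPKM of each of the 35 genes in each liver on a log axis, with NKO livers as red circles left of WT livers as blue squares, genes ordered by mean level. Values under 0.01 FPKM are drawn at 0.01, and the dashed line marks the minimum mean of 0.5 FPKM. In all 29 tested genes the circles and squares overlap, and single low points stand out for Nr3c1 in WT1 (0.191 FPKM) and for Thrb in NKO4 (0.523 FPKM).

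Promoter sequences are shown for 2 receptor genes with binding motifs of nuclear receptors themselves, and for the NR4A genes and Ppargc1a, which hold a motif of cyclic AMP signalling. RefSeq windows on GRCm38.p6, from 250 bases before to 50 bases after a start, were matched for 30 of the 35 members (47 windows). Nr3c1, Thra, Hnf4g, Ncoa2 and Ncoa3 had no window that matched. The build used by the authors is not given in the sources used here. Each line runs 5′ to 3′ on the strand of the gene, and capitals mark every match of the stated motif on either strand within the 250 bases before the start.

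The first 2 lines are from receptors that respond to retinoids or pair with those that do. Both lie inside the annotated gene, at an internal start and not at its outermost 5′ end. On GRCm38, Rarb spans chr14:16430839-16819156 (minus strand) and Rxra spans chr2:27676440-27762957 (plus strand). Which start gave the RNA measured here was not tested. In Rarb (chr14:16575501-16575540, minus strand) capitals mark 2 copies of GTTCA with 6 bases between them, which is the layout of the retinoic acid response element for which this gene is known, and 25 of 32851 windows of all genes (0.0761%) held such a pair. In Rxra (chr2:27709193-27709261, plus strand) capitals mark AGGTCA, the half-site that most nuclear receptors bind, or its reverse complement. It was in 19.1% of members' windows and 16.3% of all windows.
Rarb: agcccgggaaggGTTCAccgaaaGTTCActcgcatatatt
Rxra: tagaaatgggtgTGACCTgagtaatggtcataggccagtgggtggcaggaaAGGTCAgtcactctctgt

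The other 4 lines are from Nr4a1 (chr15:101266601-101266822, plus strand), Nr4a2 (chr2:57124098-57124215, minus strand), Nr4a3 (chr4:48045062-48045174, plus strand) and Ppargc1a (chr5:51567758-51567786, minus strand). Nr4a1 and Ppargc1a are not among the 35 genes and were chosen for display after their values were seen. Capitals mark TGACG, the half-site of the cyclic AMP response element, or its reverse complement. All 4 windows of these genes held it, as did 25.5% of members' windows and 20.8% of all windows. A match describes the letters and is no evidence of binding.
Nr4a1: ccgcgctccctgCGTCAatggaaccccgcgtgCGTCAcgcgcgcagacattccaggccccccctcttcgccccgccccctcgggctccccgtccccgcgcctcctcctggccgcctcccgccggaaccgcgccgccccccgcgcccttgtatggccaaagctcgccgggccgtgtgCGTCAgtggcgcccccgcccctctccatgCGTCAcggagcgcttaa
Nr4a2: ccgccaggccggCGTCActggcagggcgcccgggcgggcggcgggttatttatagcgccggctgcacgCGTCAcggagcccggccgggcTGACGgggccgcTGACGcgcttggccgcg
Nr4a3: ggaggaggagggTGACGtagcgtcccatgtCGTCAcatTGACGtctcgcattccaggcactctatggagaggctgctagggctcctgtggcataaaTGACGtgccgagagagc
Ppargc1a: ggtgccctcccaCGTCActgagctccagt

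The lipid sensors were examined first. Nr1h3 (chr2:91184061-91202834 on GRCm38, minus strand) had 31.7, 38.4, 30.3 and 31.1 FPKM in NKO2 to NKO5, against 32.2, 32.6, 19.1, 21.7 and 25.2 FPKM in WT1, WT2, WT3, WT4 and WT6. The WT livers fell apart into WT1 and WT2, which lay within the NKO range, and WT3, WT4 and WT6, which lay below every NKO liver. The log2 fold change was 0.35 (SE 0.17, 95% interval −0.04 to 0.74, adjusted p = 0.860 by limma), with p = 0.119 by an exact permutation test of the groups, two-sided as throughout. The smallest p this test can give is 0.00794. WT3, WT4 and WT6 were also the WT libraries of lower depth and had the lower Kupffer cell sums, of 78.8, 69.4 and 115 FPKM against 234 and 231 FPKM in WT1 and WT2. In NKO2 to NKO5 these sums were 123, 190, 86.4 and 107 FPKM. NKO4 and NKO5 thus lay below WT6 in this sum and above it in Nr1h3. Among the 6 libraries of higher depth (NKO2 to NKO5 against WT1 and WT2) the fold change of Nr1h3 was 0.01. The part of depth and of Kupffer cells in the level of Nr1h3 was not tested.

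Nr1h2, which encodes LXRβ, the form found in nearly all cell types, ran from 6.55 to 8.94 FPKM in NKO livers and from 7.55 to 11.6 FPKM in WT livers (log2 fold change −0.21). The ratio of Nr1h3 to Nr1h2 was 4.56, 4.29, 3.98 and 4.75 in NKO livers and 4.18, 2.81, 2.53, 2.33 and 3.23 in WT livers. All NKO ratios but that of NKO4 exceeded the highest WT ratio, that of WT1. Pparg encodes the fat cell and macrophage receptor PPARγ and ran from 4.61 to 11.2 FPKM in NKO livers and from 4.66 to 10.3 FPKM in WT livers. Ppard, whose product PPARδ takes part in fatty acid oxidation, ran from 0.468 to 0.905 FPKM in NKO livers and from 0.407 to 0.948 FPKM in WT livers. Their log2 fold changes were 0.03 and 0.21, with 95% intervals from −0.64 to 0.70 and from −0.43 to 0.84.

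The xenobiotic sensors CAR and PXR switch on cytochrome P450 genes. Nr1i3, the gene of CAR (chr1:171213970-171220701 on GRCm38, plus strand), had 106, 107, 61.1 and 83.8 FPKM in NKO livers, against 54.0, 107, 48.5, 62.8 and 64.2 FPKM in WT livers. WT2 alone among WT livers reached the level of NKO2 and NKO3, and NKO4 lay within the range of the other WT livers. The log2 fold change was 0.43 (SE 0.25, 95% interval −0.12 to 0.98, adjusted p = 0.890 by limma; exact permutation p = 0.183), or 0.61 without WT2 and 0.20 in the 6 libraries of higher depth. In the annotation 3304 exonic bases of Nr1i3 are shared with Tomm40l on the opposite strand. The library kit was stranded, but whether counting used strand is not given in the sources used here, so reads of the pair may not be told apart. Nr1i2, the gene of PXR, ran from 36.0 to 56.0 FPKM in NKO livers and from 45.0 to 50.02 FPKM in WT livers (log2 fold change −0.11). The spread of Nr1i2 was wider in NKO livers (SD 9.44 FPKM) than in WT livers (SD 2.13 FPKM).

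Among receptors of hepatocyte identity and metabolism, Hnf4a was the most abundant of all 35 genes. Its product HNF4α maintains the hepatocyte programme. It had 118, 133, 107 and 133 FPKM in NKO livers, against 88.5, 118, 133, 122 and 127 FPKM in WT livers. The groups overlapped throughout, with WT1 lowest. Its log2 fold change of 0.07 (SE 0.13, 95% interval −0.23 to 0.37, adjusted p = 0.968 by limma; exact permutation p = 0.690) is among the better bounded here. Nr5a2 encodes LRH-1, a regulator of bile acid synthesis, and had 4.69, 6.50, 8.12 and 7.89 FPKM in NKO livers, against 7.48, 6.18, 4.80, 6.50 and 5.85 FPKM in WT livers. NKO4 and NKO5 lay above every WT liver and NKO2 below (log2 fold change 0.12, SE 0.19, adjusted p = 0.947 by limma; exact permutation p = 0.476).

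Rora, a receptor gene of the circadian clock and of lipid metabolism, ran from 2.24 to 6.39 FPKM in NKO livers and from 2.51 to 4.96 FPKM in WT livers. Esrra, whose product ERRα drives mitochondrial genes, ran from 4.78 to 6.78 FPKM in NKO livers and from 4.51 to 5.95 FPKM in WT livers. Their log2 fold changes were −0.11 and 0.01. Hnf4g, a close relative of Hnf4a, was at most 0.0635 FPKM in NKO livers and 0.161 FPKM in WT livers, and in WT3 it was listed at the absent value. Of the HNF4 genes, Hnf4a alone thus reached the minimum level.

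The glucocorticoid receptor gene Nr3c1 had the widest interval of all. It had 4.54, 5.32, 5.75 and 5.13 FPKM in NKO livers, against 0.191, 6.16, 1.71, 4.12 and 4.61 FPKM in WT livers. NKO livers lay close together, WT1 and WT3 were low, and WT2 was the highest of all 9. The log2 fold change was 1.19 (SE 0.78, 95% interval −0.55 to 2.93, adjusted p = 0.900 by limma; exact permutation p = 0.262). Without WT1 it was 0.44, so its size rested largely on that library, and without WT2 it was 1.55.

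Nr3c2 encodes the mineralocorticoid receptor, which also binds glucocorticoids. It ran from 0.801 to 1.34 FPKM in NKO livers and from 0.236 to 0.945 FPKM in WT livers, with WT2 lowest. Its log2 fold change was 0.50, or 0.22 without WT2 and 0.63 without WT1. The ratio of Nr3c1 to Nr3c2 lay between 3.96 and 6.34 in NKO livers and was 0.202, 26.1, 2.24, 5.78 and 5.89 in WT livers. WT1 and WT2 were thus the extremes of this ratio in opposite directions. Esr1, the gene of oestrogen receptor α, ran from 1.36 to 2.55 FPKM in NKO livers and from 1.21 to 3.40 FPKM in WT livers, with a log2 fold change of 0.01.

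The retinoid receptors were led by Rxra, whose product is the common partner of many receptors named here. It had 56.5, 60.0, 57.0 and 53.0 FPKM in NKO livers, against 61.7, 51.0, 73.4, 55.3 and 62.3 FPKM in WT livers. The NKO livers lay within the WT range. With a log2 fold change of −0.09 (SE 0.12, 95% interval −0.35 to 0.17, adjusted p = 0.938 by limma; exact permutation p = 0.444), its interval was the narrowest of the 5 most abundant members. Rxra made up 86.4% to 88.9% of the summed FPKM of the 3 retinoid X receptor genes in NKO livers and 84.2% to 90.6% in WT livers. Rxrb ran from 4.11 to 5.50 FPKM in NKO livers and from 3.91 to 6.87 FPKM in WT livers, and Rxrg from 2.62 to 3.46 FPKM in NKO livers and from 2.03 to 3.72 FPKM in WT livers. Rxra was thus the main retinoid X receptor RNA in every liver.

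Of the retinoic acid receptors, Rara had the smallest p and 3.77, 5.15, 1.94 and 2.94 FPKM in NKO livers, against 3.80, 4.13, 3.95, 4.13 and 3.42 FPKM in WT livers. NKO livers lay both above and below the narrow WT range. Its log2 fold change was −0.25 (SE 0.24, adjusted p = 0.922 by limma; exact permutation p = 0.413), or −0.47 without NKO3 and −0.01 without NKO4. Rarb, whose response element is printed above, had 1.23, 0.332, 1.35 and 0.702 FPKM in NKO livers and 0.812 to 0.972 FPKM in WT livers. Its spread was 0.472 FPKM (SD) in NKO livers and 0.0794 FPKM in WT livers, around means of 0.902 and 0.903 FPKM. Rarb shares 1793 exonic bases with Top2b on the opposite strand. Rarg, the third form, ran from 2.15 to 3.72 FPKM in NKO livers and from 2.34 to 4.27 FPKM in WT livers (log2 fold change −0.01).

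The thyroid hormone receptor genes did not differ between groups beyond their spread. Thra had 2.62, 3.04, 2.22 and 2.26 FPKM in NKO livers, against 3.22, 3.06, 3.12, 3.28 and 2.49 FPKM in WT livers. All WT livers but WT6 lay above every NKO liver. The log2 fold change was −0.25 (SE 0.14, 95% interval −0.56 to 0.05, adjusted p = 0.890 by limma), and the exact permutation p of 0.0794 was the smallest of any tested member. Thra shares 263 exonic bases with Nr1d1 on the opposite strand. Thrb, which encodes the main hepatic thyroid hormone receptor, ran from 0.523 to 2.34 FPKM in NKO livers and from 1.46 to 2.39 FPKM in WT livers. NKO4 alone was low, and the log2 fold change was −0.17 in all libraries, 0.30 without NKO4 and −0.36 without NKO3. The ratio of Thrb to Thra was 0.889, 0.768, 0.235 and 0.851 in NKO livers and 0.459 to 0.783 in WT livers. The vitamin D receptor gene Vdr was above the absent value only in NKO5, WT3 and WT4, at 0.0256, 0.0232 and 0.0333 FPKM, with an exact permutation p of 0.841. At such levels a difference was not detectable at this depth.

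The COUP-TF and testicular receptors are orphan receptors that mostly repress. Nr2f6 was the most abundant, with 6.61, 9.11, 6.89 and 6.61 FPKM in NKO livers, against 7.28, 10.0, 7.33, 8.11 and 9.43 FPKM in WT livers. NKO2, NKO4 and NKO5 lay below every WT liver and NKO3 did not (log2 fold change −0.21, SE 0.15, adjusted p = 0.900 by limma; exact permutation p = 0.190). Nr2f2, which encodes COUP-TFII of venous endothelium and mesenchyme, had 1.94, 2.94, 1.88 and 1.35 FPKM in NKO livers, against 3.29, 2.31, 2.47, 2.06 and 2.40 FPKM in WT livers. Again NKO2, NKO4 and NKO5 were below every WT liver (log2 fold change −0.33, SE 0.22, adjusted p = 0.900 by limma; exact permutation p = 0.214). With each library left out the fold change of Nr2f6 lay between −0.31 (without NKO3) and −0.14 (without WT2), and that of Nr2f2 between −0.52 (without NKO3) and −0.16 (without NKO5). Nr2f6 shares 1622 exonic bases with Ocel1, and Nr2f2 shares 643 with B130024G19Rik, in both cases on the opposite strand.

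Nr2c1, the gene of the testicular receptor TR2, had 2.50, 0.918, 3.28 and 3.06 FPKM in NKO livers and 1.48 to 2.45 FPKM in WT livers. NKO3 was below every WT liver and the other NKO livers were above (log2 fold change 0.20, or 0.60 without NKO3 and 0.02 without NKO4). Nr2c2, the gene of TR4, stayed at or below 0.0976 FPKM in NKO livers other than NKO4, which had 0.832 FPKM, and ran from 0.0469 to 0.218 FPKM in WT livers. It shares 4590 exonic bases with Mrps25 on the opposite strand. Nr2f1, the gene of COUP-TFI, ran from 0.122 to 0.194 FPKM in NKO livers and from 0.0543 to 0.282 FPKM in WT livers. Nr6a1, a germ cell receptor gene, ran from 0.615 to 1.02 FPKM in NKO livers and from 0.680 to 1.05 FPKM in WT livers, with a log2 fold change of −0.08.

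The coregulators were led in level by Ncor1, the gene of the corepressor NCOR1. It had 3.21, 3.97, 3.55 and 4.03 FPKM in NKO livers, against 3.49, 4.83, 3.29, 3.08 and 2.98 FPKM in WT livers. WT2 was highest and the remaining livers were mixed (log2 fold change 0.08, SE 0.16, 95% interval −0.27 to 0.43, adjusted p = 0.969 by limma; exact permutation p = 0.667). Ncoa1, the gene of the coactivator SRC-1, had 0.846, 0.583, 1.49 and 0.707 FPKM in NKO livers, against 1.20, 1.70, 0.921, 1.08 and 1.45 FPKM in WT livers. NKO2, NKO3 and NKO5 were below every WT liver, while NKO4 was above all but WT2. Its log2 fold change of −0.49 (SE 0.27, 95% interval −1.09 to 0.11, adjusted p = 0.890 by limma; exact permutation p = 0.111) was the lowest of any tested member, and it was −0.74 without NKO4 and −0.33 without NKO3.

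Ncoa2, the gene of SRC-2, ran from 0.478 to 1.43 FPKM in NKO livers and from 0.331 to 1.82 FPKM in WT livers, and Ncoa3, the gene of SRC-3, from 0.711 to 1.93 FPKM in NKO livers and from 0.749 to 0.942 FPKM in WT livers. Their log2 fold changes were 0.46 and 0.36, with ranges of 0.22 (without WT1) to 0.78 (without NKO4) for Ncoa2 and 0.11 (without NKO3) to 0.55 (without NKO5) for Ncoa3 when each library was left out. The ratio of Ncor1 to Ncoa1 was 3.79, 6.81, 2.39 and 5.71 in NKO livers and 2.05 to 3.57 in WT livers. NKO2, NKO3 and NKO5 lay above every WT liver in this ratio and NKO4 did not.

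**Figure D2:**
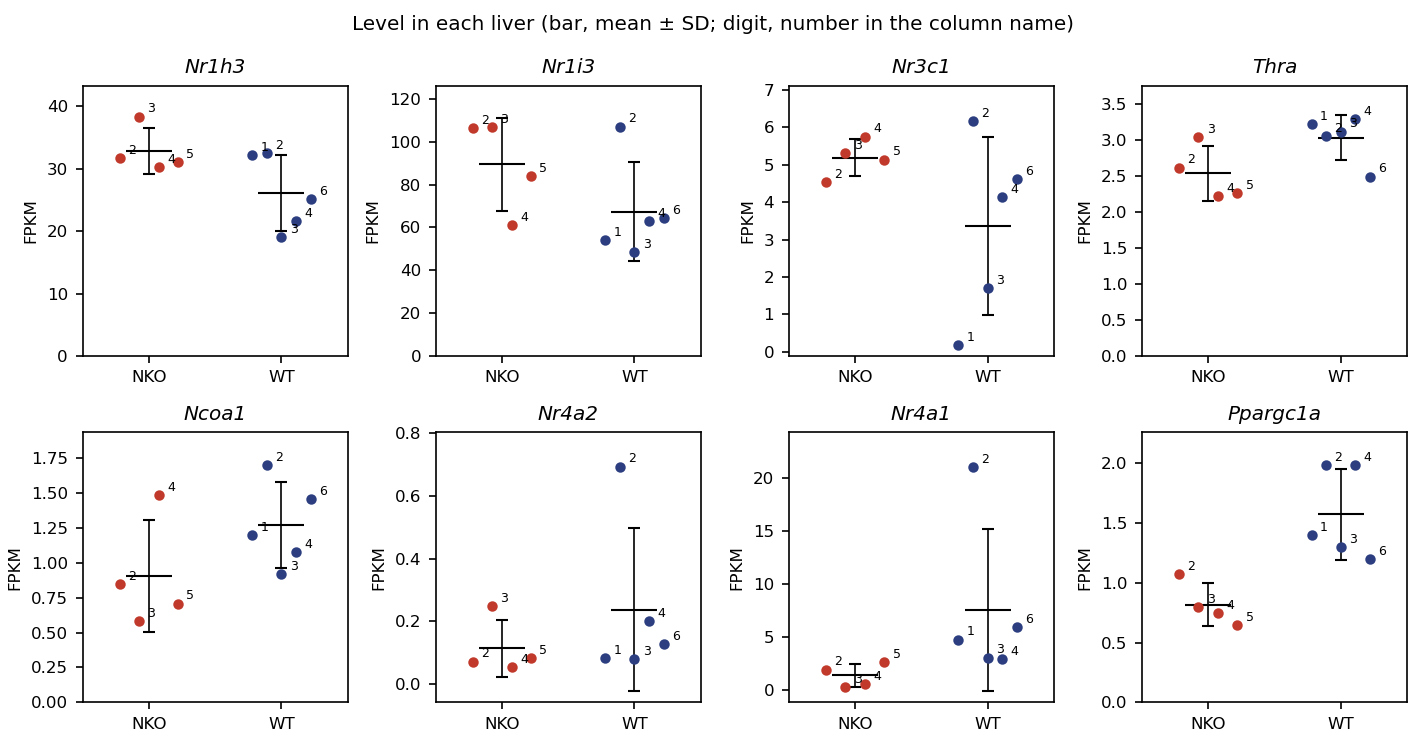
FPKM in each liver of 8 genes, with NKO left of WT, a bar for the mean and whiskers for the SD, and the digit of the column name beside each point. Nr1h3, Nr1i3, Nr3c1, Thra, Ncoa1 and Nr4a2 are among the 35 genes and overlap between groups, while in Nr4a1 and Ppargc1a, which are not, every NKO liver lies below every WT liver.

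Nr4a2 and Nr4a3 encode receptors that act without a known natural ligand and are switched on within minutes to hours of a stimulus. Nr4a2 had 0.0710, 0.248, 0.0525 and 0.0822 FPKM in NKO livers, against 0.0814, 0.694, 0.0801, 0.200 and 0.128 FPKM in WT livers. NKO3 and WT2 were the highest of their groups (exact permutation p = 0.437). Nr4a3 ran from 0.0269 to 0.0700 FPKM in NKO livers, and in WT livers from the absent value in WT6 to 0.497 FPKM in WT2 (exact permutation p = 0.635). In these libraries 1 fragment on 1 kilobase was worth 0.0497 to 0.0656 FPKM. It was worth less on these longer genes, which have 4059 (Nr4a2) and 5987 (Nr4a3) exonic bases. The low values in most livers thus rest on few fragments, though on more than the step for 1 kilobase gives. The WT2 values, 0.694 and 0.497 FPKM, lay well above even the step for 1 kilobase.

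Over the 29 tested members, 15 log2 fold changes were positive and 14 negative, with a median of 0.01, against 50.5% positive and a median of 0.00 over all genes tested. The median size of the change, without its sign, was 0.171 for members and 0.150 for all genes, and the median standard error was 0.216 and 0.199. For 24 members the whole 95% interval lay within 1 log2 unit of zero, against 79.5% of all genes tested, on the scale of log2(FPKM + 0.1), which understates changes of low genes. The intervals of the remaining 5 members reached beyond 1 log2 unit from zero. For 7 members it lay within 0.5 log2 units, against 33.8% of all genes. In the 6 libraries of higher depth 11 fold changes were positive and 18 negative, with a median of −0.12 for members and −0.11 for all genes. There, 0 members had an unadjusted p under 0.05 by limma, against 5.34% of genes. Ppard and Thra had groups that did not overlap, as did 15.4% of genes with these 4 and 2 libraries.

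**Figure D3:**
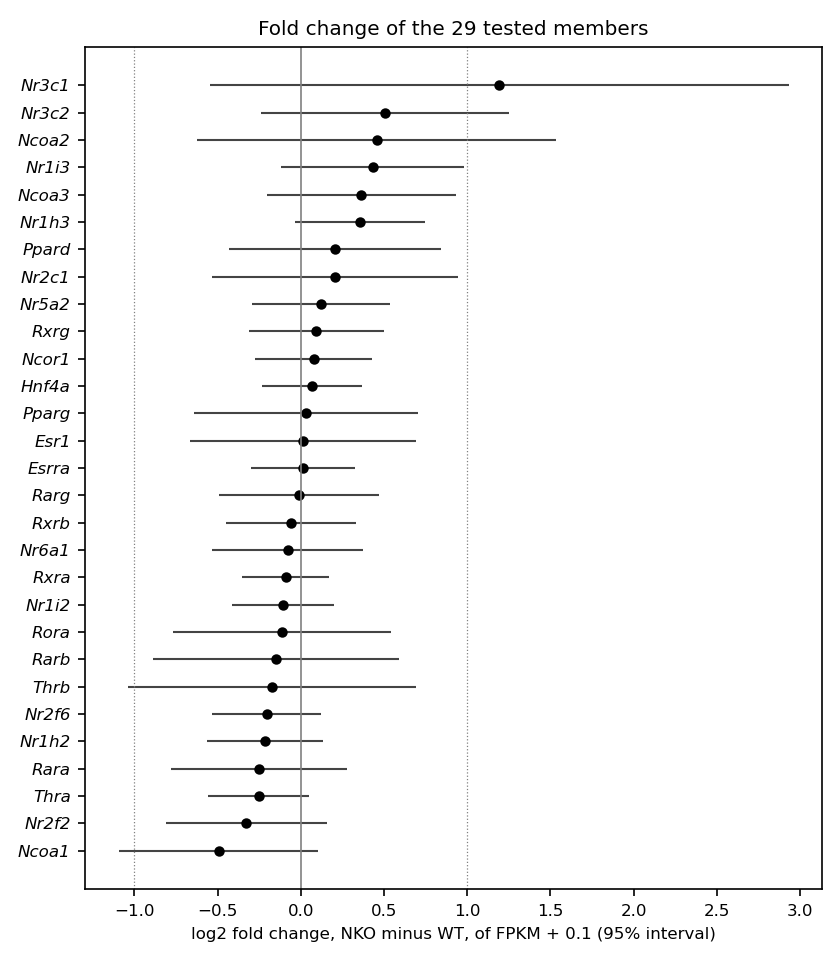
Log2 fold change, NKO minus WT, of log2(FPKM + 0.1) for the 29 tested members, with 95% intervals from limma and dotted lines at −1 and 1. All intervals include zero, and that of Nr3c1 is the widest, from −0.55 to 2.93.

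The livers did not contribute evenly to these ranges. WT2 held the highest value of all 9 for 11 of 29 tested members, and 25.8% of all genes tested were highest in WT2. NKO3 held the lowest value for 7 members and the highest for 5, and NKO4 the highest for 6. Counts of members at an unadjusted p under 0.05 by limma changed with the livers used. Without NKO3, Nr2c1, Nr2f2, Nr2f6, Rara and Thra passed it, as did 6.19% of all genes. Without WT2, Nr1h3 and Nr1i3 passed it, as did 9.97% of all genes. Without NKO4, Ncoa1 and Nr1i3 passed it (5.09% of all genes), without WT1 Nr1h3 did (5.37%), and without WT6 Thra did (4.4%). Groups did not overlap in Nr2c1, Nr2f2 and Nr2f6 without NKO3 (4.99% of all genes), in Ncoa1 without NKO4 (3.87%), in Nr3c2 without WT1 (3.34%) and in Thra without WT6 (2.84%). With values scaled by median ratios, Nr1h3 passed the unadjusted threshold (6.36% of all genes) and its groups did not overlap (2.36%). With limma's array weights Nr1h3, Nr1i3, Nr2f2 and Nr2f6 passed it, with 11.3% of all genes. The members that passed thus differed with the liver left out. No member had an adjusted p under 0.05 in any of these sets.

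Other nuclear receptor genes, which are not among the 35, were read from a list of 18, of which 10 were tested. Nr4a1, the third member of the NR4A family, had 1.95, 0.331, 0.619 and 2.69 FPKM in NKO livers, against 4.77, 21.02, 3.07, 2.91 and 5.96 FPKM in WT livers. Every NKO liver was below every WT liver. The log2 fold change was −2.30 (SE 0.68, 95% interval −3.83 to −0.78, adjusted p = 0.783 by limma; exact permutation p = 0.00794, the smallest possible), so it failed the correction over all genes. With each library left out in turn the value lay between −2.73 and −1.83. Of the 10, 6 fold changes were positive and 4 negative, with a median of 0.04. Nr0b1, Nr2e1, Nr2e3, Nr5a1, Pgr and Rorb were listed at the absent value in every library.

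Among 22 other coregulator genes, 20 were tested, 11 with positive and 9 with negative fold changes and a median of 0.06. Ppargc1a encodes PGC-1α, a coactivator of gluconeogenesis and of mitochondrial genes. It had 1.07, 0.794, 0.748 and 0.649 FPKM in NKO livers, against 1.40, 1.98, 1.30, 1.98 and 1.20 FPKM in WT livers. Every NKO liver was below every WT liver (log2 fold change −0.86, SE 0.21, 95% interval −1.32 to −0.39, adjusted p = 0.591 by limma; exact permutation p = 0.00794), and with each library left out in turn the value lay between −0.98 and −0.77. Its adjusted p missed the threshold. The coactivator gene Ncoa5 had a log2 fold change of 0.64.

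Known target genes of the receptors were then counted, by lists written from general knowledge. No gene of these lists had an adjusted p under 0.05 by limma, and over all genes tested 2.17% were higher and 3.73% lower in NKO at an unadjusted p under 0.05. Of 14 targets of PXR and CAR, 10 fold changes were positive, with a median of 0.09, and 2 genes were higher at an unadjusted p under 0.05. These were Abcb1a, a drug efflux pump gene (log2 fold change 0.41), and Cyp2b9, a cytochrome P450 gene (0.36), which had 0.11 and 0.08 in the 6 libraries of higher depth. Cyp2c55 had 0.40, or 0.17 without NKO2 and 0.60 without NKO5. Of 10 LXR targets, 5 were positive, with a median of 0.03. Cyp7a1, which sets the rate of bile acid synthesis, had a log2 fold change of 2.14 (95% interval 1.25 to 3.03, adjusted p = 0.416 by limma) with no overlap between groups, while the sterol transporter genes Abcg5 and Abca1 had −0.41 and −0.43.

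Of 14 glucocorticoid receptor targets, 12 fold changes were negative, with a median of −0.49, and 4 genes were lower at an unadjusted p under 0.05. Pck1, a gene of gluconeogenesis, had a log2 fold change of −1.27 (adjusted p = 0.475 by limma) with no overlap between groups. The clock gene Per1 had −0.45, the phosphatase gene Dusp1 −0.82 and the tyrosine catabolism gene Tat −0.98. In the 6 libraries of higher depth 9 of the 14 were negative, as were 8381 of all 12350 genes tested, and the median was −0.27. The median was −0.18 without NKO3 and −0.89 without NKO4. The receptor gene Nr3c1 itself had a positive fold change, as given above. Of 11 tested PPAR targets, from a list of 12, 9 were negative, with a median of −0.45, and 3 were lower at an unadjusted p under 0.05. They were Ucp2, an uncoupling protein gene (−0.45), Pdk4, which restrains glucose oxidation (−1.64), and Lpl, which clears lipoprotein lipid (−0.78). In the 6 libraries of higher depth all 11 PPAR targets were negative, as were 8381 of all 12350 genes tested. Of the 11, Cd36, Plin4 and Mogat1 lay near zero there, at −0.03, −0.008 and −5.7e-05. The median of the PPAR targets was −0.48, against −0.11 over all genes. With each library left out the median lay between −0.53 and −0.34.

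The other target lists had medians closer to zero. For HNF4A and LRH-1, 10 of 12 fold changes were positive, with a median of 0.09, and the smallest p-values were those of Otc of the urea cycle (0.18) and of the apolipoprotein genes Apoa1 (−0.31) and Apoc3 (−0.22), which had −0.14 and −0.09 without NKO3. For thyroid hormone 5 of 6 genes were tested, 2 positive and 3 negative, with a median of −0.09, and Thrsp and Me1 of lipogenesis had 0.74 and 0.42, or as little as 0.40 for Thrsp without NKO4 and 0.17 for Me1 without WT3. The median was 0.32 without NKO3 and −0.19 without NKO4. For retinoic acid 6 of 8 were tested, 2 positive and 4 negative, with a median of −0.04, with Tgm2 at −0.63 and the retinoid genes Dhrs3 and Cyp26b1 at 0.28 and −0.91. Cyp26b1 had 0.33 without NKO3 and Tgm2 −0.42 without WT3. The median was 0.24 without NKO3 and −0.31 without NKO4. For ROR 6 of 8 were tested, 3 in each direction, with a median of 0.02, and for ERRA 4 of 7 were positive, also with a median of 0.02. The single ERRA target lower at an unadjusted p under 0.05 by limma was Pdk4, counted above as a PPAR target. The ROR list likewise shares genes with other lists, so the lists are not independent. None of 3 vitamin D receptor targets reached the minimum level. In the 6 libraries of higher depth the medians of the other nuclear receptors, LXR targets and ROR targets were −0.23, −0.22 and −0.29, where that of all genes was −0.11.

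**Figure D4:**
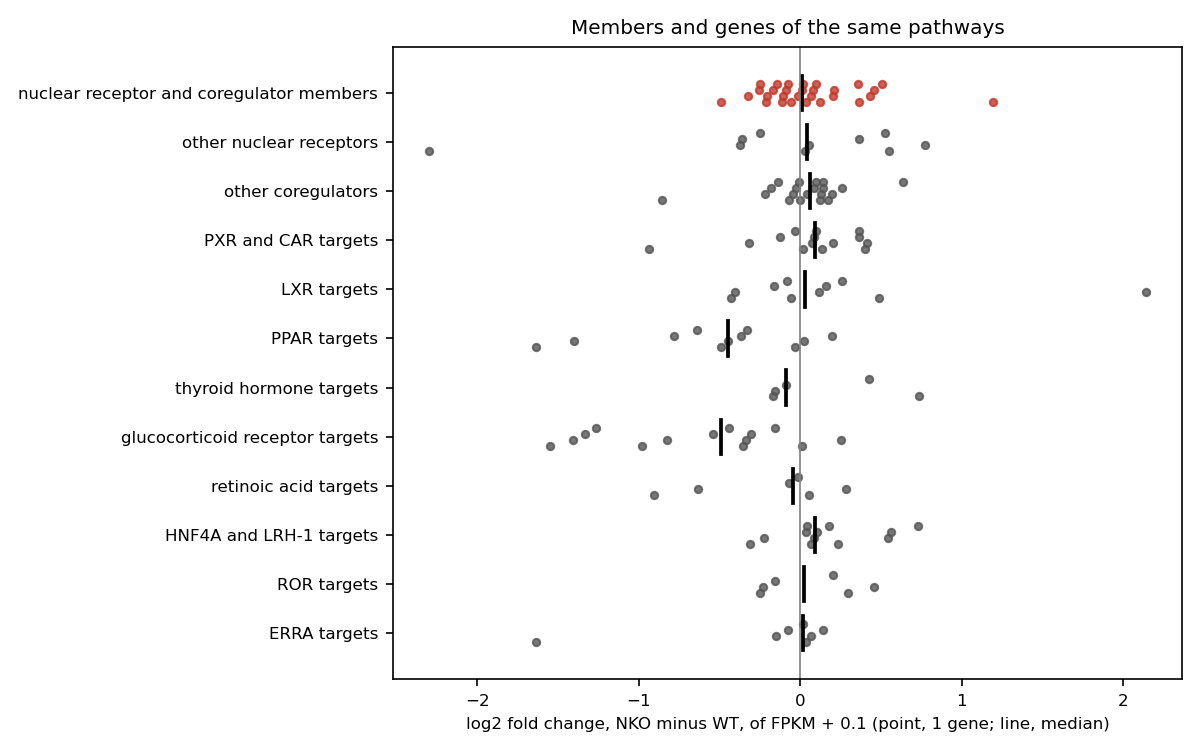
Log2 fold change, NKO minus WT, of log2(FPKM + 0.1) for the tested members (red) and the tested genes of each other list (grey), with 1 point per gene and a black line at the list's median. The members gather around a median of 0.01, and the medians farthest from zero are those of glucocorticoid receptor targets (−0.49) and PPAR targets (−0.45).

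Markers of other cell types were read beside these values. Of 8 Kupffer cell markers 3 fold changes were positive and 5 negative, and of 4 tested neutrophil markers, from a list of 10, 1 was positive and 3 negative. The summed neutrophil markers were 5.71, 4.23, 5.75 and 23.0 FPKM in NKO2 to NKO5 and 6.13 to 12.3 FPKM in WT livers. All NKO livers but NKO5 thus lay below every WT liver in this sum. Stellate cell markers summed to 21.7 to 24.8 FPKM in NKO livers and 15.9 to 27.2 FPKM in WT livers, and sinusoidal endothelial markers to 50.9 to 64.0 FPKM in NKO livers and 43.5 to 66.1 FPKM in WT livers. Bile duct markers summed to 18.9 to 32.3 FPKM in NKO livers and 7.51 to 35.6 FPKM in WT livers, and lymphocyte markers to 1.67 to 4.21 FPKM in NKO livers and 1.14 to 3.77 FPKM in WT livers. A single stellate cell marker and a single sinusoidal endothelial marker had an unadjusted p under 0.05 by limma. The ranges overlapped for every list, and none of these markers was absent from all libraries. The part of cell composition in the levels of the receptors was not tested.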

How the data were processed

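The authors sequenced stranded poly(A) libraries and deposited FPKM values in 9 columns, 1 per liver. The submitters' processing notes name HISAT2 and StringTie, and the paper names edgeR for expression levels. Versions, genome build, annotation and the strand setting of counting are not given in the sources used here. Columns were placed in groups by their names, since their numbers differ from those of the sample titles. The deposited columns of fold change, p-value, q-value and regulation hold the authors' own comparison and were not used.

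NKO was set against WT by limma 3.58.1 (R 4.3.3, mean-variance trend, no covariate). Input values were log2(FPKM + 0.1) of 12350 genes whose mean reached 0.5 FPKM, and Benjamini-Hochberg adjustment ran over all of these. A fold change on this scale understates that of low genes. Single genes had a two-sided exact permutation test. The fit was tested on simulated data. Depth was recovered from steps of 1 fragment in low values of 15115 single-exon genes, of which 48.9% to 53.0% lay on multiples of 0.5 fragments to a tolerance of 0.1 of a step, where an even spread gives 20%. The steps were too imprecise for whole reads, so no count test was run. Coordinates are from GENCODE M21 on GRCm38, which held 55141 of the table's identifiers. Figures were drawn in Python 3.11.15 with matplotlib 3.10.9.

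In each role, values by library were given for the member with the smallest p and the most abundant one, and up to 3 genes with the smallest p were named per list, except for some genes that are not reported here. Other per-library values, and the promoter motifs, were chosen after values were seen. Members and lists were chosen with earlier results of these data known. Alternatives were other pseudocounts, filters, scaling, array weights, no trend, a replicate block, the 6 libraries of higher depth and each library left out.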

Additional observations from a re-analysis of the deposited data

Results flagged for a closer look

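Of 70 sets of values (35 genes in 2 groups), 9 held a liver far from the others of its group by Dixon's test at the 95% level. For normal values chance gives about 1 in 20, or 3.5 sets. FPKM need not be normal and the sets share the same livers, so whether 9 exceeds chance was not tested. Of the 9, 4 were WT2 at the high end. These were Nr1i3 at 107 FPKM (nearest 64.2), Ncor1 at 4.83 FPKM (nearest 3.49), Nr4a2 at 0.694 FPKM (nearest 0.200) and Nr4a3 at 0.497 FPKM (nearest 0.0892). NKO3 was high for Nr2f6, at 9.11 FPKM (nearest 6.89), and for Nr4a2, at 0.248 FPKM (nearest 0.0822). NKO4 was high for Nr2c2, at 0.832 FPKM (nearest 0.0976). NKO5 was the only NKO liver with Vdr above the absent value, at 0.0256 FPKM. Since the other 3 share the fixed absent value, any detected level would have stood apart. WT6 was low for Thra, at 2.49 FPKM (nearest 3.06).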

How the results depend on the processing

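No member had an adjusted p under 0.05 in any alternative run. Over all genes, 1 was called in the reported fit, 0 with no filter on low values, 0 with no mean-variance trend, 6 with array weights, 0 with a replicate block and 0 to 1 with each library left out. Genes at an unadjusted p under 0.05 numbered 729, against 1401 with array weights, 285 with the block, 1274 with no filter and 1231 without WT2. Members at an unadjusted p under 0.05 numbered 1 with median-ratio scaling (Nr1h3, with 6.36% of genes). They numbered 4 with array weights (Nr1h3, Nr1i3, Nr2f2 and Nr2f6, with 11.3% of genes). With each library left out they numbered 0 to 5, with 4.40% to 9.97% of genes. Members whose groups did not overlap numbered 1 with median-ratio scaling (Nr1h3, with 2.36% of genes). They numbered 2 in the 6 libraries of higher depth, with 15.4% of genes. With each library left out they numbered 0 to 3, with 2.84% to 6.23% of genes. The members' median log2 fold change was −0.12 in the 6 libraries of higher depth and −0.0620 to 0.0537 with each library left out. Column numbers were not taken to pair the samples. Deviations from group means correlated at −0.14, −0.11 and 0.01 between same-numbered libraries, and at −0.17 to 0.31 between the other pairs of libraries. Few pairs share a number, so these values cannot exclude a pairing. With the block, log2 fold changes turned in direction for Esr1 (−0.0671), Ppard (−0.0485), Hnf4a (−0.0640), Nr2c1 (−0.0466), Ncor1 (−0.0381) and Nr6a1 (0.0924). With array weights they turned for Esr1 (−0.0496), Rxrb (0.0943), Rxrg (−0.00143), Rarg (0.236), Rora (0.0126), Esrra (−0.0461) and Gpd2 (0.00947). With a pseudocount of 1, Esr1 had −0.00101. In the 6 libraries of higher depth they turned for Rxra (0.0116), Rxrg (−0.0590), Pparg (−0.415), Nr5a2 (−0.0311), Esrra (−0.108), Ncor1 (−0.156), Me1 (−0.161), Tgm2 (0.0584) and Dhrs3 (−0.0713). With each library left out, direction turned within ranges of −0.154 to 0.201 for Esr1, −0.145 to 0.0537 for Rxrb, −0.0248 to 0.187 for Rxrg, −0.375 to 0.207 for Rarb, −0.142 to 0.130 for Rarg, −0.357 to 0.298 for Thrb, −0.213 to 0.210 for Pparg, −0.0320 to 0.129 for Hnf4a, −0.384 to 0.106 for Rora, −0.0898 to 0.0755 for Esrra, −0.188 to 0.0296 for Nr6a1 and −1.42 to 0.326 for Cyp26b1. The causes were not tested. Of all such values, 1044 kept their direction and call and 47 turned, none of them past the threshold. The 6 untested members lay below the minimum mean of 0.5 FPKM, and only the run with no filter on low values tested them.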

Other observations

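NKO3 and WT2 stood apart in some receptor target genes. Among the 14 glucocorticoid receptor targets, NKO3 had the lowest value of the NKO livers in 9 and WT2 the lowest of the WT livers in 8. The shares of all genes tested for these counts were not computed. NKO3 was also the lowest NKO liver in 8 of 11 PPAR targets and 4 of 6 retinoic acid targets. It was so in 1 of 10 LXR targets and 2 of 12 HNF4A and LRH-1 targets. For Fkbp5, Zbtb16, Mt1, Mt2 and Cdkn1a, NKO3 and WT2 were the 2 lowest of all 9 livers, as they were in 5.55% of all genes tested. Mt2, a metallothionein gene, had 17.6 FPKM in NKO3 and 149 FPKM in WT2, against 707 to 1043 FPKM in the other NKO livers and 1106 to 2103 FPKM in the other WT livers. Cdkn1a, the gene of the cell cycle inhibitor p21, had 0.946 FPKM in NKO3 and 2.60 FPKM in WT2, against 14.01 to 21.8 FPKM in the other NKO livers and 27.7 to 52.3 FPKM in the other WT livers. Nr3c1 was not low in NKO3 (5.32 FPKM) or WT2 (6.16 FPKM).

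Of the 14 PXR and CAR targets, Cyp2b10 and Por had NKO3 and WT2 as the 2 lowest livers. Cyp2b10, a cytochrome P450 gene that CAR activates, had 14.9 FPKM in NKO3 and 161 FPKM in WT2, against 427 to 673 FPKM in the other NKO livers and 418 to 804 FPKM in the other WT livers. The genes named in these paragraphs were chosen after their values were seen, and no test was run.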
